A study of Mus musculus with 8 samples.

Results

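The genes described here are 46 named components of mouse DNA replication and of the supply of its building blocks, chosen by symbol for their known roles and sorted into 8 roles: origin licensing, the MCM helicase, helicase activation, the sliding clamp and its loader, polymerases and primase, single-strand binding with Okazaki fragment processing, nucleotide supply with uracil removal, and chromatin assembly. Of these, 45 had a probe set with exactly 1 gene symbol, out of 18140 genes with such a probe set, and all 45 were among the 12411 genes tested. Chaf1a, a subunit of the chromatin assembly factor, had no such probe set, so its expression was not analysed here, and only its promoter was. One probe set stood for each gene, the brightest.

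The data are 8 single-colour Affymetrix arrays of total RNA, 2 for each of 4 groups of V6.5 mouse embryonic stem cells, a line of pluripotent cells grown in culture. In the Smc1 group a virus-delivered short hairpin RNA targeted Smc1 (gene Smc1a), a core subunit of cohesin, and 2 biological replicates carried 1 and the same hairpin. In the CapH2 group hairpins 3 and 4 targeted CapH2 (gene Ncaph2), a subunit of condensin II, with 1 array per hairpin. In the Smc2 group hairpins 1 and 2 targeted Smc2, a subunit of both condensin complexes, again with 1 array per hairpin. The GFP group was the control, 2 biological replicates of 1 hairpin against green fluorescent protein, a target that is not part of the mouse genome. Cells of all 4 groups were infected in medium with 8 µg/ml polybrene, kept for 4 days in 4 µg/ml puromycin, and lysed on day 5. Because the Smc1 and GFP groups rest on 1 hairpin each, effects of that hairpin on other genes cannot be told apart from effects of losing its target.

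Replication starts when the origin recognition complex, CDC6 and CDT1 load the ring-shaped MCM helicase onto DNA, a step called licensing. CDC45 and the GINS complex then join MCM to form the active helicase, primase and DNA polymerase alpha start each new strand, and polymerases delta and epsilon extend it while held to the template by the PCNA clamp. Ribonucleotide reductase, thymidylate synthase and thymidine kinase provide the deoxynucleotides. Many of these genes are transcribed under E2F factors as cells enter S phase, and embryonic stem cells, which divide fast and spend little time in G1, are known for high levels of licensing factors.

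The hairpins lowered their targets. Ncaph2 had intensities of 398 and 429.5 in CapH2 knockdowns against 3469 and 3168 in GFP controls, a log2 difference of -2.96 ± 0.22 (SE, adjusted p = 0.00118). Smc2 read 2234 and 2859 in Smc2 knockdowns against 8756 and 7146 in GFP controls, -1.64 on the log2 scale (adjusted p = 0.0156). Smc1a read 535 and 454 in Smc1 knockdowns against 4165 and 3662 in GFP controls, -2.95 on the log2 scale (adjusted p = 8e-05). In each case the knockdown arrays lay below both control arrays. All values are intensities on the deposited linear scale, array medians lay between 62.5 and 74.5, and every fold change and test was taken on log2(intensity + 16) with limma. Arrays of 1 group correlated across genes at r = 0.968 to 0.981, but CapH2 hairpin 3 correlated more closely with Smc2 hairpin 1 (r = 0.985), and CapH2 hairpin 4 with Smc2 hairpin 2 (r = 0.984), than with the other hairpin of its own group (r = 0.974). CapH2 hairpin 4 was also closer to both GFP arrays (r = 0.978 and 0.976) than to CapH2 hairpin 3. Smc2 hairpin 2 was closer to both GFP arrays (r = 0.978 and 0.973) than to Smc2 hairpin 1 (r = 0.968). CapH2 hairpin 3 and Smc2 hairpin 1 were not closer to GFP (r = 0.950 to 0.958).

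In Smc1 knockdowns 11 of 45 replication genes fell against GFP controls at an adjusted p below 0.05, and 0 were called higher. Among all genes tested 4.69% were called lower, 9.38% higher and 14.1% in either direction, that is 582 lower and 1164 higher. With arrays centred on their medians instead, which moves the median of all genes tested by more than 0.1 (to -0.10), 19 members were called, all lower, against 1047 genes lower and 916 higher. The called members were Cdc6 and Gmnn (licensing), Mcm4 (helicase), Cdc45 and Gins1 (helicase activation), Rfc1 (clamp loader), Pold2 and Prim1 (polymerase and primase), and Rrm2, Tk1 and Ung (nucleotide supply and uracil removal). Their Smc1 means were 51.3% to 73.0% of their GFP means. Across all 45 members the Smc1 mean was 51.3% to 101.7% of the GFP mean, with a median of 76.1%. The members' median log2 difference was -0.39, against 0.03 for all genes tested. In 43 of 45 the difference was below 0, against 47.7% of all genes. Both Smc1 arrays lay below both GFP arrays for 39 members and above them for 0, and the arrays overlapped for the other 6. For all genes tested those shares were 28.4% below and 34.6% above. In total 23 members had an unadjusted p below 0.05, all lower, against 12.5% of all genes. The 2 members with a difference above 0 were Fen1 (0.02) and Dut (0.01).

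**Figure D1:**
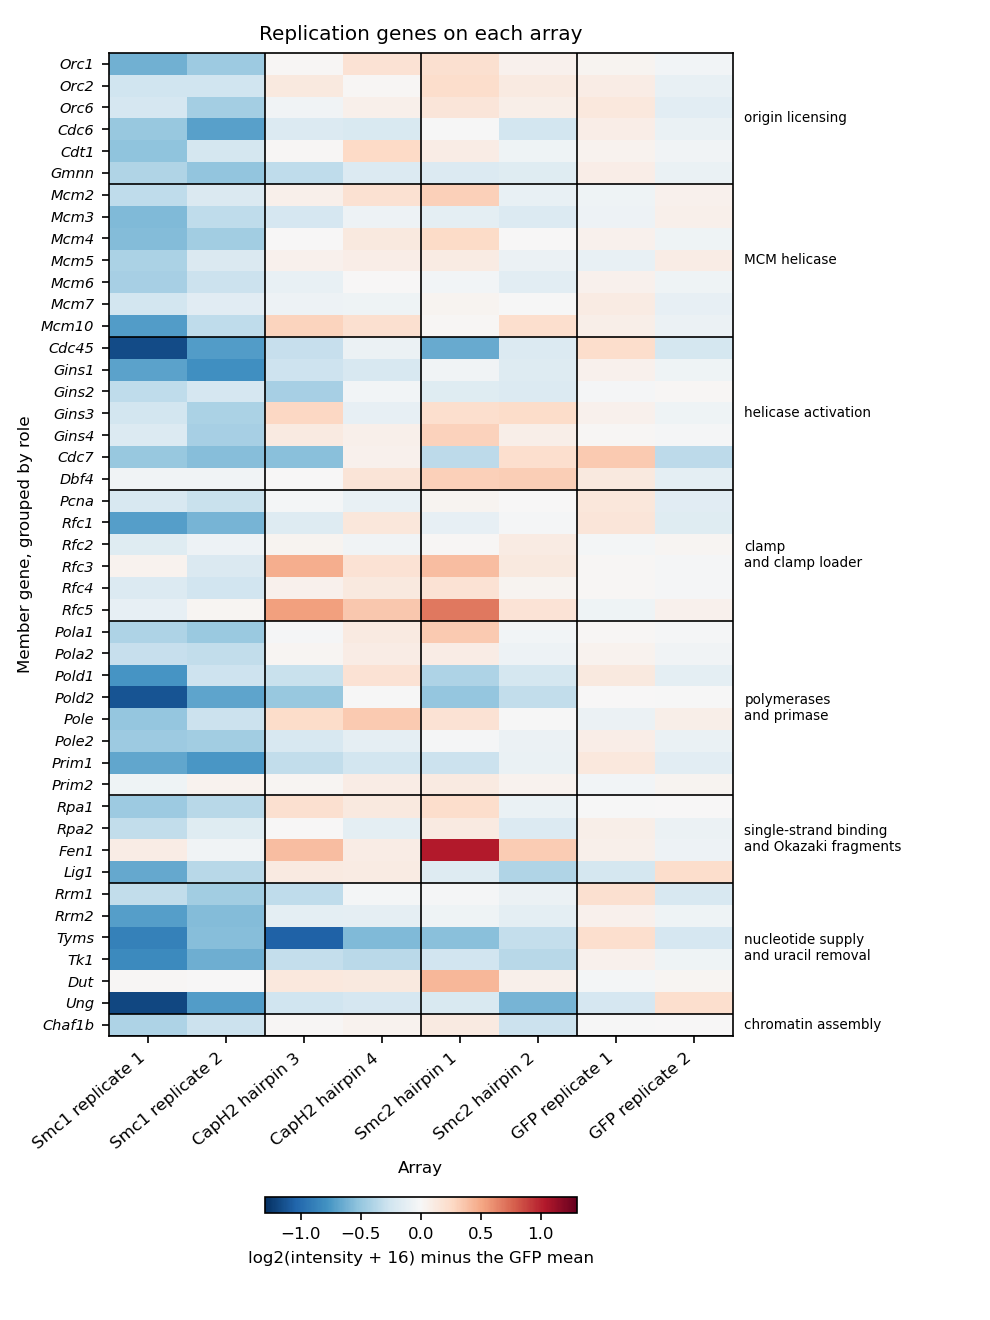
Rows are the 45 measured members grouped by role, columns are the 8 arrays, and colour gives log2(intensity + 16) minus the mean of the 2 GFP arrays of that gene. Blue means lower than the GFP mean and red higher, and the 2 Smc1 columns are blue in nearly every row while the CapH2 and Smc2 columns are mixed.

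In bulk RNA such as this, fewer cells in S phase and less of each transcript per cell cannot be told apart. Markers of other states moved in the same arrays. The summed intensity of 10 embryonic stem cell markers was 83350 and 101171 in Smc1 knockdowns, against 139903 and 135796 in GFP controls. Of the 10, 7 were called lower (70%), against 4.69% of all genes. The summed intensity of 8 trophectoderm markers was 48749 and 34913 in Smc1 knockdowns, against 16323 and 22622 in GFP controls. These sums were mostly 2 keratin genes, Krt8 and Krt18. Krt8 read 20014.5 and 15514 in Smc1 knockdowns and 6143 and 9637 in GFP controls. Krt18 read 25785 and 16752 in Smc1 knockdowns and 8723 and 11051 in GFP controls. Of these 8 markers 7 lay above the array median on each Smc1 array and 5 on each GFP array. Of the 7 tested 1, Cdx2, was called higher (14.3%, against 9.38% of all genes). Cdx2 and Gata3 lay above the array median on the 2 Smc1 arrays only. They were tested only because they were high there, so the call of Cdx2 is not independent of the filter. In 5 of the 7 both Smc1 arrays lay above both GFP arrays. In the other 2, Eomes and Hand1, the arrays overlapped. Cdx2 itself read 239.7 and 118 in Smc1 knockdowns and 7.25 and 28.8 in GFP controls. The sums of the fibroblast markers, 7381 and 11141 in Smc1 knockdowns and 7543 and 10084 in GFP controls, were mostly Fn1 (fibronectin), at 6344 and 10311 in Smc1 knockdowns and 7013 and 9505 in GFP controls. Of the 7 fibroblast markers tested 1 was called higher, the collagen gene Col3a1, which read 408 and 189.9 in Smc1 knockdowns and 55.9 and 68.5 in GFP controls (adjusted p = 0.0154). That is 14.3% of the list, against 9.38% of all genes higher. Col5a2, another collagen gene, had both Smc1 arrays above both GFP arrays and was not called (adjusted p = 0.0717). Postn went the other way, at 19.5 and 26.1 in Smc1 knockdowns and 68.1 and 73.1 in GFP controls, and was not called. The differences of 4 of the 7 were below 0, with a median of -0.01. The sums of 8 primitive endoderm markers were 923 and 728 in Smc1 knockdowns, 429 to 907 in the condensin knockdowns and 408 and 577 in GFP controls. Of the 5 tested 1 was called higher, Dab2, at 446 and 389 in Smc1 knockdowns and 75.3 and 155 in GFP controls (adjusted p = 0.0113). That is 20% of the list, against 9.38% of all genes. Gata6 went the other way, at 110 and 94.0 in Smc1 knockdowns and 131 and 176 in GFP controls, and was not called. The differences of 2 of the 5 were below 0. The ratio of the 3' to the 5' beta-actin probe sets, a measure of RNA integrity, was 1.70 and 1.84 in Smc1 knockdowns against 2.18 and 2.04 in GFP controls. In the condensin knockdowns it ran from 1.67 to 2.18. The same ratio for Gapdh was 0.833 and 0.862 in Smc1 knockdowns and 0.864 and 0.857 in GFP controls. The part of these markers in the lower replication genes was not tested.

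Fewer members were called with any 1 of the 4 Smc1 and GFP arrays left out, which leaves 1 array in its group. Fewer of all genes were called in each of these fits too, so the losses were not particular to the members. Without Smc1 replicate 1, or without GFP replicate 1, all 11 calls were lost. The log2 differences of the 11 called members were then -0.80 to -0.45 without Smc1 replicate 1 and -1.18 to -0.36 without GFP replicate 1, against -0.96 to -0.45 with all arrays. The median of all members was -0.33 without Smc1 replicate 1, against 0.06 for all genes, and -0.41 without Smc1 replicate 2, against 0.01. It was -0.35 without GFP replicate 1, against 0.02, and -0.41 without GFP replicate 2, against 0.04. With the beta-actin ratio as a term in the model 2 were called, Gins1 and Rrm2, and the members' median was -0.37. Those 2 are 4.44% of the members, both lower, against 4.62% of all genes in either direction and 1.10% lower. Over all 19 alternatives, from 42 to 45 members had a difference below 0 and the median lay between -0.51 and -0.33.

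**Figure D2:**
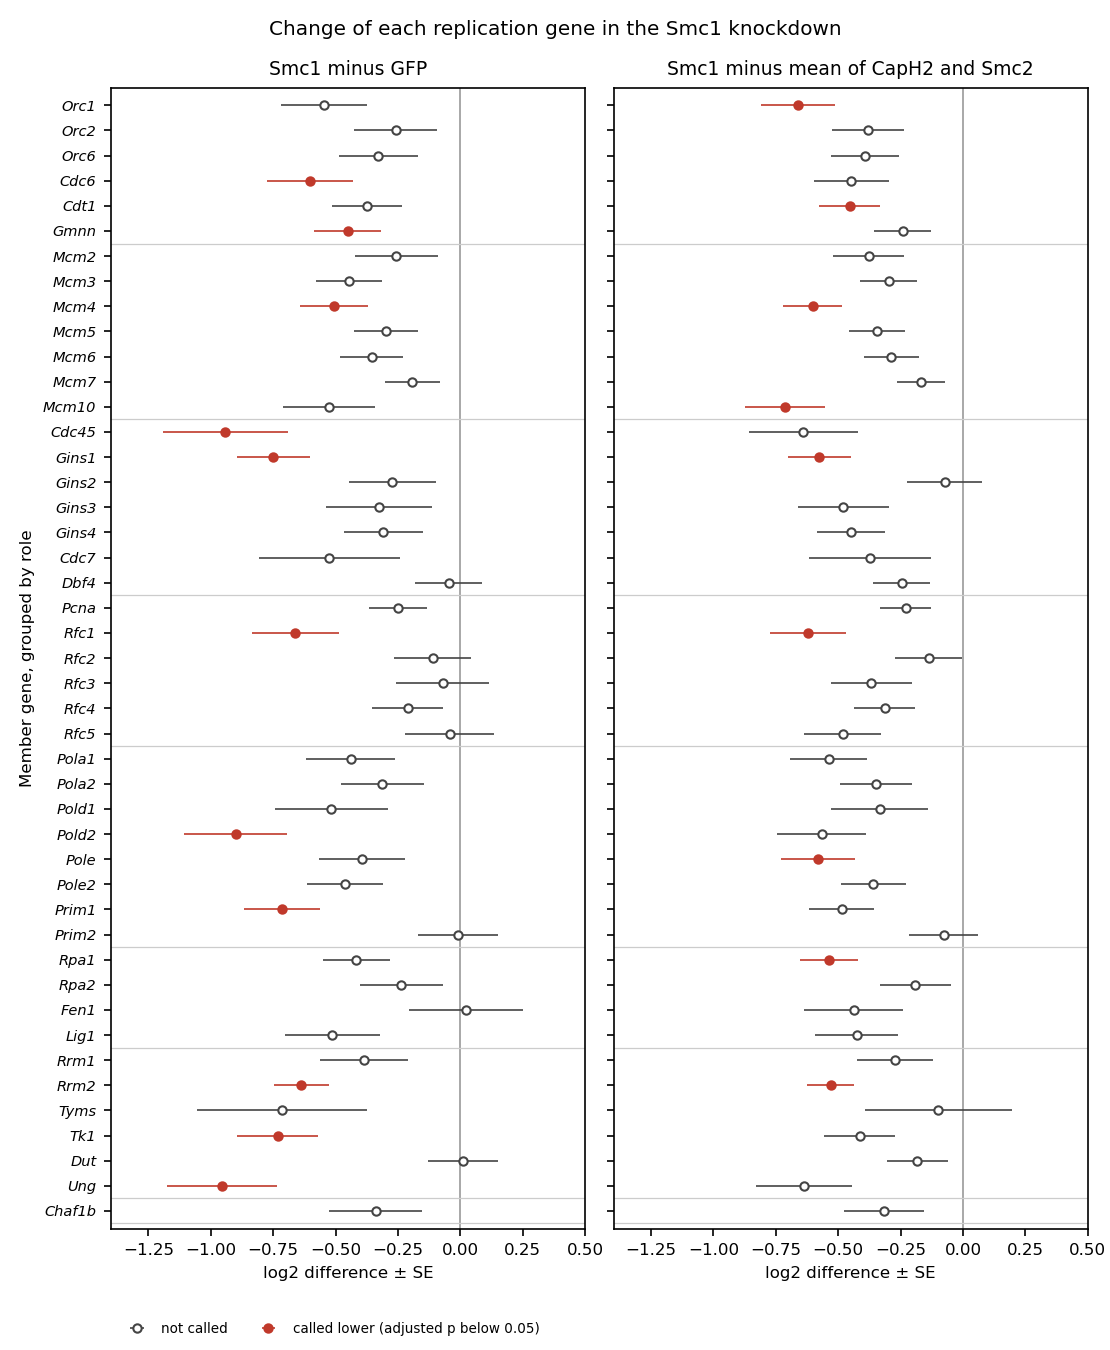
Points are log2 differences with their limma standard errors for the 45 members, Smc1 minus GFP on the left and Smc1 minus the mean of the CapH2 and Smc2 knockdowns on the right. Filled red points are the 11 and 9 members called lower, and in both panels nearly every point lies left of 0.

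Apart from the array values, the promoters of the members were searched for letters of known cell cycle sites. The members were chosen by role, and many of them are transcribed under E2F factors, as given above. A high share of E2F letters is therefore not a result of these arrays. RefSeq promoter windows of the GRCm38.p6 build, 250 bases before to 50 after the gene start, were matched for 38 of the 46 members, Chaf1a included. The E2F letters searched were TTTCCCGC and TTTGGCGC, on both strands, and either was present in 11 of the 38 members (28.95%), against 1.797% of 26994 genes with a window of the same length. The letters CCAAT, the core of NF-Y sites, were in 22 of the 38 members (57.89%) against 41.04% of genes, and the E-box letters CACGTG in 7 (18.42%) against 8.091%. No E2F matches of 2 kinds overlapped in a member. The stretches that follow come from the licensing and helicase genes because these act first in replication and their products load or form the ring, with 20 bases on each side where the window allows. Capitals mark the E2F letters, on either strand, and each stretch runs 5′ to 3′ in the gene's own direction.

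Cdc6: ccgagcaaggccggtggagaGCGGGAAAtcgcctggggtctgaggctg
Cdt1: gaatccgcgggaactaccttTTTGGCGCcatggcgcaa
Mcm3: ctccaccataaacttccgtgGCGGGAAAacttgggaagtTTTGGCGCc
Mcm5: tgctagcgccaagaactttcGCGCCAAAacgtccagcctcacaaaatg
Mcm6: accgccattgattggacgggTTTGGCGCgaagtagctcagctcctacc
Mcm7: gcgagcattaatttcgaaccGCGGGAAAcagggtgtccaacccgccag

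The Cdc6 stretch lies at chr11:98907993-98908040 on the plus strand, with its capitals starting 138 bases before the gene start. That of Cdt1 lies at chr8:122568027-122568064 (plus strand), with capitals 32 bases after the start, and that of Mcm5 at chr8:75109340-75109387 (plus strand), with capitals 149 bases before it. On the minus strand are those of Mcm3 at chr1:20820266-20820313, Mcm6 at chr1:128359725-128359772 and Mcm7 at chr5:138172021-138172068. Mcm3 was the 1 member with letters of both kinds. Of the 8 members called lower in Smc1 knockdowns that had a window, 1 held E2F letters (Cdc6) and 5 held CCAAT, and of the 29 measured members not called, 10 held E2F letters and 16 CCAAT. A match is a string of letters and not a measured binding site.

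Of the origin licensing genes Cdc6 and Gmnn were called lower, and each of the genes measured was lower on both Smc1 arrays than on the other 6. All 6 lay below both GFP arrays, 2 were called lower, 4 had an unadjusted p below 0.05, and their median log2 difference was -0.41. For the counts of this and every later role, 4.69% of all genes were called lower and 28.4% lay below both GFP arrays. A further 2 shares were 12.5% lower at an unadjusted p below 0.05 and 11.1% below the 6 other arrays. Cdc6, the loader ATPase that brings the MCM ring to origins, had intensities of 1556 and 1341 for Smc1, 1939 and 1923 for CapH2, 2190.2 and 1864 for Smc2 and 2341 and 2069.9 for GFP. Both Smc1 arrays were the lowest of the 8. The means were 1448 ± 152 in Smc1 knockdowns and 2206 ± 192 in GFP controls (SD, n = 2 each), and the log2 difference was -0.60 ± 0.17 (SE, adjusted p = 0.0454). Gmnn encodes geminin, the inhibitor that keeps CDT1 from relicensing origins within a cell cycle, and read 6598 and 6042 with Smc1 knocked down, 6855 and 7659.5 with CapH2 knocked down, 7643 and 7768 with Smc2 knocked down and 9207 and 8112 with the GFP hairpin. The Smc1 arrays were again lowest, and the GFP arrays were the highest, with the condensin knockdowns between. Gmnn averaged 6320.1 ± 393 in Smc1 knockdowns and 8659 ± 775 in GFP controls (SD, n = 2 each), and its log2 difference was -0.45 ± 0.13 (SE, adjusted p = 0.0492). Over 19 alternatives the adjusted p ran from 0.0305 to 0.249 for Cdc6, called in 9, and from 0.0305 to 0.241 for Gmnn, called in 6. Neither was called when either CapH2 array was left out, at an adjusted p of 0.0599 for Cdc6 without hairpin 3.

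Orc1, the ATPase subunit of the origin recognition complex, gave 984 and 1100.5 in Smc1 knockdowns, 1544 and 1738 in CapH2 knockdowns, 1764 and 1586 in Smc2 knockdowns and 1572 and 1485 in GFP controls. The Smc1 arrays stood apart below the other 6, which overlapped among themselves. Against GFP the log2 difference was -0.55 ± 0.17 (SE, adjusted p = 0.0605), which missed the threshold. Cdt1, the partner of CDC6 in loading MCM, was bright, at 9391 and 11543 for Smc1, 13635 and 16120.1 for CapH2, 14491 and 13028 for Smc2 and 13898 and 13133 for GFP. Its Smc1 arrays lay below the rest and its log2 difference from GFP was -0.38 ± 0.14 (SE, adjusted p = 0.101). The remaining licensing genes were Orc2, at -0.26 (adjusted p = 0.326), and Orc6, at -0.33 (adjusted p = 0.189), both subunits of the origin recognition complex.

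The MCM genes encode the 6 subunits of the helicase ring (Mcm2 to Mcm7) and MCM10, which helps to switch it on. All 7 were lower on both Smc1 arrays than on the other 6 arrays, 1 was called and 5 had an unadjusted p below 0.05, with a median of -0.36. Mcm4 was the called one, with intensities of 5993 and 6492 with Smc1 knocked down, 8909 and 9687 with CapH2 knocked down, 10554 and 8878 with Smc2 knocked down and 9254 and 8509.6 with the GFP hairpin. Both Smc1 arrays lay below the rest, which overlapped. Means were 6243 ± 353 in Smc1 knockdowns and 8882 ± 527 in GFP controls (SD, n = 2 each), a log2 difference of -0.51 ± 0.14 (SE, adjusted p = 0.0353), with an adjusted p of 0.0236 to 0.223 over the alternatives and a call in 10 of 19. The loss of the call came without either Smc1 or either GFP array, among others.

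Mcm10 read 1350.5 and 1785 in Smc1 knockdowns, 2759 and 2605 in CapH2 knockdowns, 2267 and 2623 in Smc2 knockdowns and 2373 and 2127 in GFP controls. Here 3 of the 4 condensin arrays were above both GFP arrays, and both Smc1 arrays were the lowest. The log2 difference from GFP was -0.53 ± 0.18 (SE, adjusted p = 0.0838). Mcm3 read 7145 and 8458 for Smc1, 9107 and 10109 for CapH2, 9685 and 9364 for Smc2 and 10159.5 and 11078 for GFP, with GFP highest and Smc1 lowest. Its difference from GFP was -0.45 ± 0.13 (SE) at an adjusted p of 0.0501, just above the threshold. The other ring subunits had smaller differences that were not called, with log2 values of -0.36 for Mcm6, -0.30 for Mcm5, -0.26 for Mcm2 and -0.19 for Mcm7.

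Among the genes that turn the loaded ring into a working helicase, Cdc45 and Gins1 were called lower. Of 7 measured, 2 were called lower and 6 lay below both GFP arrays, with a median of -0.33. Cdc45, the factor that completes the active helicase, read 507 and 691 with Smc1 knocked down, 933 and 1094 with CapH2 knocked down, 728 and 1013 with Smc2 knocked down and 1356 and 979 with the GFP hairpin. Both Smc1 arrays were lowest, with 1 Smc2 array just above them and the other within the range of the GFP arrays. Cdc45 averaged 599 ± 130.5 in Smc1 knockdowns and 1167 ± 267 in GFP controls (SD, n = 2 each), 51.3% of the control level and the lowest share of any member, with a log2 difference of -0.94 ± 0.25 (SE, adjusted p = 0.03495). Gins1 encodes a subunit of GINS, the complex that bridges CDC45 and MCM, and read 2553 and 2371 in Smc1 knockdowns, 3436 and 3590.1 in CapH2 knockdowns, 4004 and 3694 in Smc2 knockdowns and 4304 and 3994 in GFP controls. The groups did not overlap between Smc1 and the rest, and the 2 Smc1 arrays were close to each other. Its means were 2462 ± 128 in Smc1 knockdowns and 4149 ± 219 in GFP controls (SD, n = 2 each) and the log2 difference was -0.75 ± 0.14 (SE, adjusted p = 0.0106). The adjusted p over the alternatives was 0.00626 to 0.0944 for Gins1, called in 15 of 19, and 0.0124 to 0.277 for Cdc45, called in 12 of 19, and Cdc45 was not called with the beta-actin term (0.277) or without GFP replicate 2 (0.0667).

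Cdc7, the catalytic subunit of the kinase that fires origins, read 1698 and 1630.0 for Smc1, 1639.8 and 2493 for CapH2, 1899.6 and 2794 for Smc2 and 3054 and 1886 for GFP. The 2 GFP arrays differed from each other by more than the Smc1 and GFP means did, and Smc1 overlapped the CapH2 arrays. Its log2 difference from GFP was -0.52 ± 0.28 (SE, adjusted p = 0.2399). Dbf4, the activating subunit of the same kinase, differed by -0.05 (adjusted p = 0.841), with overlapping arrays. The other GINS subunits differed by -0.27 (Gins2), -0.33 (Gins3) and -0.31 (Gins4), and none of these 3 passed the test.

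**Figure D3:**
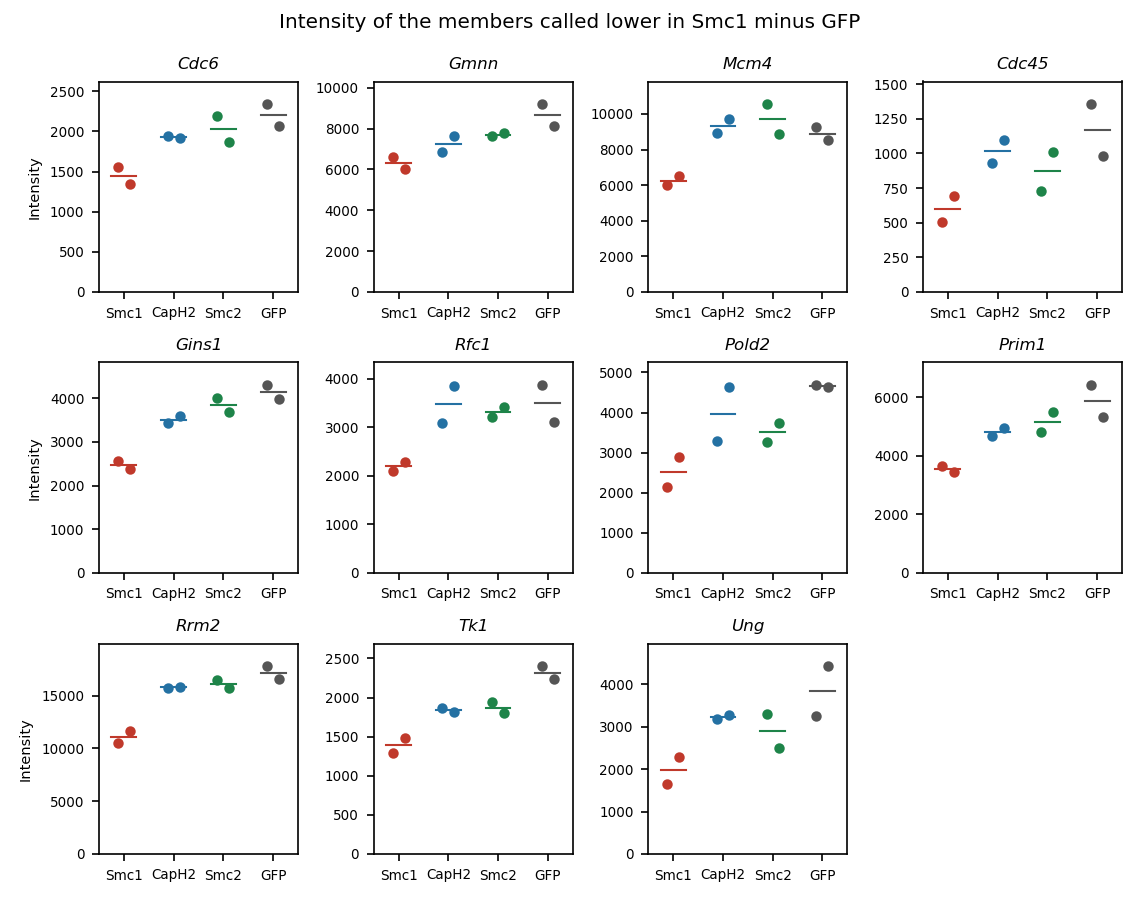
Each panel shows the intensity of 1 of the 11 members called lower in Smc1 minus GFP, on a linear axis from 0, with a point per array and a line at the group mean. In all 11 panels both Smc1 points lie below the 6 points of the other groups.

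Of the clamp and its loader only the gene of the large loader subunit, Rfc1, was called lower, and the role had the smallest median difference from GFP. Of 6 genes 1 was called, 4 lay below both GFP arrays, and the median was -0.16. Against the condensin knockdowns the median was -0.34, and all 6 had both Smc1 arrays below all 4 condensin arrays, against 14.6% of all genes. There 5 had an unadjusted p below 0.05, all lower, against 9.03% of all genes. Rfc1, the large subunit of replication factor C, which opens the clamp and places it on DNA, had intensities of 2108 and 2280.4 with Smc1 knocked down, 3089 and 3853 with CapH2 knocked down, 3217 and 3427 with Smc2 knocked down and 3872 and 3119 with the GFP hairpin. The Smc1 arrays were below the other 6, and the other 3 groups overlapped. Means were 2194 ± 122 in Smc1 knockdowns and 3495 ± 532 in GFP controls (SD, n = 2 each), a log2 difference of -0.66 ± 0.18 (SE, adjusted p = 0.0346), and 2 further probe sets for Rfc1 gave -0.71 and -0.75. Over the alternatives its adjusted p was 0.0179 to 0.231, with a call in 12 of 19, and it was lost without GFP replicate 2 (0.0641) and with the beta-actin term (0.227).

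Pcna, the clamp itself, was among the brightest members, at 18840.4 and 17876 in Smc1 knockdowns, 21479 and 20401 in CapH2 knockdowns, 22354 and 21883 in Smc2 knockdowns and 24239 and 19658 in GFP controls. Smc1 was lowest but the 2 controls differed from each other by more than the lower control did from the Smc1 arrays. The log2 difference was -0.25 ± 0.12 (SE, adjusted p = 0.181). Rfc4, a small loader subunit, read 3487 and 3312 for Smc1, 4105 and 4297 for CapH2, 4502 and 4028 for Smc2 and 3994 and 3884 for GFP. Its Smc1 arrays were lowest, with a log2 difference from GFP of -0.21 ± 0.14 (SE, adjusted p = 0.343). The small subunits Rfc2, Rfc3 and Rfc5 differed from GFP by -0.11, -0.07 and -0.04, and the Rfc3 and Rfc5 arrays of the groups overlapped.

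Of 8 polymerase and primase genes 2 fell by the test, Pold2 and Prim1, and 7 had both Smc1 arrays below both GFP arrays, with 6 at an unadjusted p below 0.05 and a median of -0.45. Pold2, the accessory subunit of polymerase delta, which extends the lagging strand, read 2139 and 2901 with Smc1 knocked down, 3301 and 4634 with CapH2 knocked down, 3277 and 3728 with Smc2 knocked down and 4686 and 4644 with the GFP hairpin. The GFP arrays nearly coincided, Smc1 was lowest, and all 4 condensin arrays lay between. Pold2 averaged 2519.9 ± 539 in Smc1 knockdowns and 4665 ± 29.5 in GFP controls (SD, n = 2 each), 54.0% of control, a log2 difference of -0.90 ± 0.20 (SE, adjusted p = 0.0196). Prim1, the catalytic subunit of primase, which lays the RNA primers, read 3652 and 3459 in Smc1 knockdowns, 4693 and 4969 in CapH2 knockdowns, 4821 and 5500.4 in Smc2 knockdowns and 6421 and 5323 in GFP controls. Smc1 arrays were lowest and close together. Means were 3556 ± 136 in Smc1 knockdowns and 5872 ± 777 in GFP controls (SD, n = 2 each) with a log2 difference of -0.72 ± 0.15 (SE, adjusted p = 0.0149), and a second probe set gave -0.64. Across the alternatives adjusted p was 0.00451 to 0.173 for Pold2, called in 14 of 19, and 0.00827 to 0.127 for Prim1, called in 15 of 19, and neither was called with the beta-actin term (0.152 and 0.0898).

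Pole, the catalytic subunit of polymerase epsilon, which makes the leading strand, read 1281 and 1495 for Smc1, 2154 and 2310.2 for CapH2, 2071 and 1815 for Smc2 and 1729 and 1921 for GFP. Its Smc1 values were lowest, while both CapH2 values exceeded the controls. The log2 difference from GFP was -0.39 ± 0.17 (SE, adjusted p = 0.151). Pole2, the second epsilon subunit, differed from GFP by -0.46 and Pold1, the catalytic delta subunit, by -0.52, with adjusted p values of 0.0699 and 0.1497. Subunits of polymerase alpha, which extends the primers, differed by -0.44 (Pola1) and -0.31 (Pola2). Prim2, the second primase subunit, gave -0.01, with overlapping arrays.

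None of the 4 genes for single-strand binding and Okazaki fragments was called against GFP with limma, 2 had an unadjusted p below 0.05, both lower, and the median was -0.33. Rpa1, the large subunit of replication protein A, which coats single-stranded DNA, read 7374 and 7944 with Smc1 knocked down, 11783 and 11191 with CapH2 knocked down, 11941 and 9649 with Smc2 knocked down and 10187 and 10264 with the GFP hairpin. Smc1 was below all other arrays, with a log2 difference from GFP of -0.42 ± 0.13 (SE, adjusted p = 0.0642). Lig1, the ligase that seals Okazaki fragments, read 2614 and 3223 in Smc1 knockdowns, 4490.1 and 4469 in CapH2 knockdowns, 3682 and 3154 in Smc2 knockdowns and 3531 and 4872 in GFP controls. Both Smc1 arrays lay below GFP but overlapped an Smc2 array. Its difference was -0.51 ± 0.19 (SE, adjusted p = 0.0994). Rpa2, a smaller subunit of replication protein A, read 2746 and 3069 for Smc1, 3434 and 3135 for CapH2, 3724 and 3016 for Smc2 and 3612 and 3243 for GFP, and its Smc1 and Smc2 arrays overlapped. Its log2 difference from GFP was -0.24 ± 0.17 (SE, adjusted p = 0.366). Fen1, the flap nuclease of the same pathway, read 2457 and 2221 with Smc1 knocked down, 3035 and 2454 with CapH2 knocked down, 4707 and 2885 with Smc2 knocked down and 2405 and 2193 with the GFP hairpin, with Smc1 and GFP overlapping.

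Genes of nucleotide supply and uracil removal had the lowest role median against GFP, -0.68, with 3 of 6 called lower and 5 below both GFP arrays. The 6 include Tyms, which lay near the array medians. Their median difference from GFP was also below 0 in the condensin knockdowns, -0.21 in CapH2 and -0.20 in Smc2. In Smc1 minus the condensin knockdowns it was -0.34, which was not the lowest, with helicase activation at -0.45. Rrm2, the small subunit of ribonucleotide reductase and the one whose level follows S phase, was very bright, at 10486 and 11644 in Smc1 knockdowns, 15749 and 15851 in CapH2 knockdowns, 16527 and 15773 in Smc2 knockdowns and 17816 and 16588 in GFP controls. The 6 arrays of the other groups lay close together and both Smc1 arrays well below them. Rrm2 averaged 11065 ± 819 in Smc1 knockdowns and 17202 ± 868 in GFP controls (SD, n = 2 each), 64.3% of control, a log2 difference of -0.64 ± 0.11 (SE, adjusted p = 0.00729), the smallest adjusted p of any member. Its 2 further probe sets gave -0.79 and -0.76, and its adjusted p over the alternatives was 0.00558 to 0.0888, with a call in 16 of 19. The call was lost when replicate 1 of Smc1 (0.0888) or of GFP (0.0542) was left out, and with no intensity trend (0.0511).

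Tk1, the thymidine kinase of the salvage pathway, read 1296 and 1489 for Smc1, 1871 and 1817 for CapH2, 1946 and 1798 for Smc2 and 2403 and 2238 for GFP. The groups were ordered with Smc1 lowest, both condensin knockdowns between and GFP highest, without overlap between these 3 levels. Means were 1392 ± 136 in Smc1 knockdowns and 2320.4 ± 117 in GFP controls (SD, n = 2 each), a log2 difference of -0.73 ± 0.16 (SE, adjusted p = 0.0182). Ung, the glycosylase that removes uracil from DNA, read 1659 and 2293 with Smc1 knocked down, 3173 and 3275 with CapH2 knocked down, 3300.4 and 2499.8 with Smc2 knocked down and 3257 and 4434 with the GFP hairpin. Both Smc1 arrays were lowest, and the GFP arrays overlapped those of the CapH2 and Smc2 knockdowns. Ung averaged 1976 ± 448 in Smc1 knockdowns and 3846 ± 832 in GFP controls (SD, n = 2 each), 51.4% of control, and its log2 difference of -0.96 ± 0.22 (SE, adjusted p = 0.0209) was the lowest of any member. Adjusted p over the alternatives was 0.0109 to 0.154 for Tk1 and 0.00714 to 0.181 for Ung, with calls in 15 and 14 of 19.

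The other nucleotide genes did not pass the test. Rrm1, the large subunit of ribonucleotide reductase, differed by -0.39 (adjusted p = 0.165). Tyms, thymidylate synthase, gave -0.72 ± 0.34, but its brightest probe set read only 61.8 and 81.3 in Smc1 knockdowns, 53.1 and 80.2 in CapH2 knockdowns, 82.1 and 99.6 in Smc2 knockdowns and 151 and 106 in GFP controls, close to the array medians, and a dimmer one gave 0.35. Dut, the dUTPase that keeps uracil out of DNA, read 7762 and 7739 for Smc1, 8495 and 8413 for CapH2, 10390.5 and 8079.7 for Smc2 and 7567 and 7830.2 for GFP, with Smc1 and GFP overlapping. A second, far dimmer Dut probe set gave -1.03, so the probe sets of Dut disagreed. Chaf1b, the measured subunit of the chromatin assembly factor that deposits histones behind the fork, read 1144 and 1252 with Smc1 knocked down, 1539 and 1568 with CapH2 knocked down, 1651 and 1252 with Smc2 knocked down and 1511 and 1526 with the GFP hairpin. Its Smc1 arrays were lowest, level with Smc2 hairpin 2, and the log2 difference from GFP was -0.34 ± 0.18 (SE, adjusted p = 0.244).

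Other probe sets of the same genes were used as a check on the choice of probe set. Of the members, 34 had more than 1 probe set, and 40 further probe sets passed the same brightness filter. In Smc1 minus GFP 36 of these 40 were below 0, with a median of -0.38, and 4 above, in Orc2, Mcm10, Fen1 and Tyms. For 6 of the 11 called members there were 8 such further probe sets, all below 0, between -0.79 and -0.37.

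**Figure D4:**
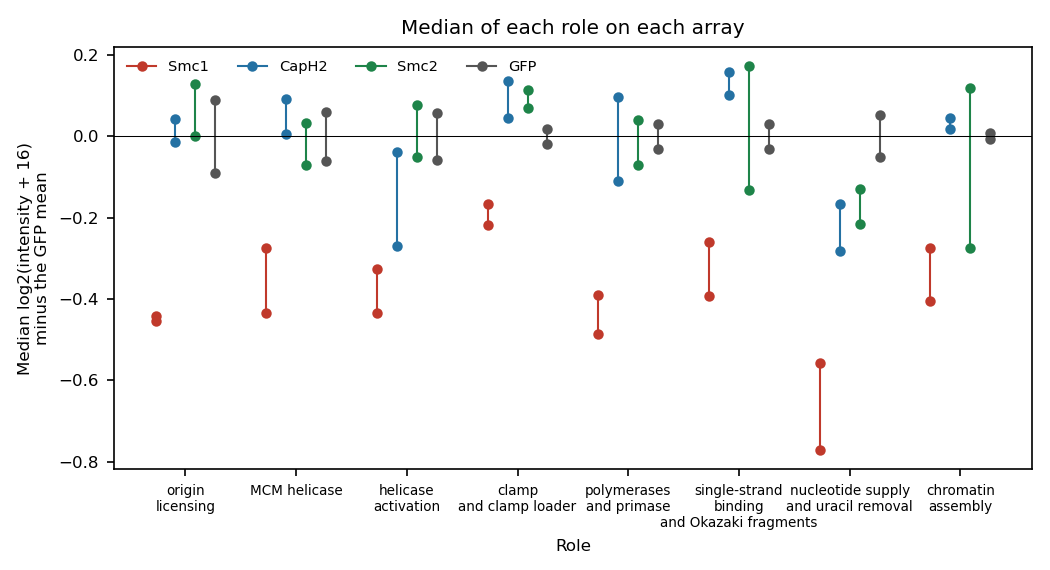
For each role, points give the median over its measured members of log2(intensity + 16) minus the GFP mean, 1 point per array, joined within a group, with Smc1 drawn left of CapH2, Smc2 and GFP. Both Smc1 points lie below those of the other groups, except that in chromatin assembly, a single gene, the lower Smc2 point is level with the upper Smc1 point.

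Per array, the median of all members relative to the GFP mean, in log2 units, came to -0.41 and -0.33 for Smc1 knockdowns, 0.00 and 0.05 for CapH2 knockdowns, 0.03 and -0.07 for Smc2 knockdowns, and 0.05 and -0.05 for GFP controls. The 2 Smc1 arrays stood below the other 6, which lay close to 0. In nucleotide supply the Smc1 medians were -0.77 and -0.56, and in clamp loading -0.17 and -0.22. The medians of the condensin arrays were -0.28 to -0.13 in nucleotide supply and 0.05 to 0.14 in clamp loading. The difference between roles was not tested.

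Genes of replication outside the 46 were counted from lists of the same pathways. Of 38 further fork and origin genes 36 were tested, 3 were called lower and 0 higher in Smc1 minus GFP, and the median was -0.26. That is 8.33% called, all lower, against 4.69% of all genes lower and 14.1% in either direction. Atad5, which unloads PCNA, read 963 and 976 in Smc1 knockdowns, 1424 and 1717 in CapH2 knockdowns, 1443 and 1757 in Smc2 knockdowns and 1881 and 1693 in GFP controls, a log2 difference from GFP of -0.87 ± 0.18 (SE, adjusted p = 0.0153). Dna2, a nuclease and helicase of flap processing, read 1971 and 2403 for Smc1, 3610.2 and 3484 for CapH2, 3803 and 3417 for Smc2 and 3996 and 3736 for GFP, a difference of -0.82 ± 0.16 (SE, adjusted p = 0.0106). In both the Smc1 arrays lay below all others. Rnaseh2b, a subunit of the enzyme that removes RNA from RNA:DNA hybrids, read 2442 and 2461 with Smc1 knocked down, 2517 and 2870.2 with CapH2 knocked down, 2579 and 3034 with Smc2 knocked down and 3681 and 3536 with the GFP hairpin, with -0.55 ± 0.16 (SE, adjusted p = 0.0446), and all 3 knockdowns lay below GFP there.

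Of 32 further nucleotide synthesis genes 30 were tested, 2 were called lower and 1 higher, with a median of -0.17. Their shares, 6.67% lower and 3.33% higher, compare with 4.69% and 9.38% of all genes. Rrm2b, the ribonucleotide reductase subunit that p53 induces, read 404 and 447 in Smc1 knockdowns, 375 and 632 in CapH2 knockdowns, 405 and 826 in Smc2 knockdowns and 1319 and 1216 in GFP controls. Every knockdown array was below both GFP arrays, and the Smc1 difference was -1.54 ± 0.33 (SE, adjusted p = 0.0158). Dhodh, an enzyme of pyrimidine synthesis, read 750.4 and 962 for Smc1, 1550.0 and 1634 for CapH2, 1583 and 1139 for Smc2 and 1346 and 1530.1 for GFP, a difference of -0.75 ± 0.21 (SE, adjusted p = 0.0449). Cmpk1, the kinase of UMP and CMP, was the 1 called higher, at 0.58 (adjusted p = 0.0339).

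Regulators of entry into S phase moved both ways. Of 32 tested, 4 were called higher and 4 lower in Smc1 minus GFP, with a median of -0.23. Each count is 12.5% of the list, against 9.38% of all genes higher and 4.69% lower. The higher ones were Ccnd2, a D-type cyclin (2.29, adjusted p = 0.00585), Cdk6, its kinase partner (1.70, 0.0225), E2f3, an activating E2F factor (1.40, 0.0246), and E2f7, a repressing one (1.04, 0.0165). Ccnd2 read 1124 and 1079 with Smc1 knocked down, 731 and 309.7 with CapH2 knocked down, 588 and 417 with Smc2 knocked down and 166 and 270.3 with the GFP hairpin, so its Smc1 arrays were the highest. The lower ones were Ccnd3, another D-type cyclin (-1.70, adjusted p = 0.0027), Tfdp2, a dimer partner of E2F (-0.93, 0.0198), Cdk2, the kinase that drives S phase (-0.67, 0.0283), and E2f5, an E2F that works with pocket proteins (-0.62, 0.0474). E2f3 read 969.6 and 942 in Smc1 knockdowns, 1171 and 687 in CapH2 knockdowns, 1119 and 528 in Smc2 knockdowns and 347 and 355 in GFP controls, with every knockdown array above both GFP arrays. Of 25 genes of G2 and mitosis 24 were tested and 0 were called by limma, with 8 at an unadjusted p below 0.05, 7 of them lower, and a median of -0.21. Of all genes 31.2% passed that limit, 12.5% lower.

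In Smc1 knockdowns 9 of 45 members were also called lower, and 0 higher, against the condensin knockdowns, the mean of the CapH2 and Smc2 groups. Among all genes tested 2.24% were called lower and 5.61% higher (7.85% in either direction), that is 278 and 696, and with median centring 468 and 502. The difference itself uses no GFP array but shares the Smc1 arrays with the comparison above. The members called were Orc1, Cdt1, Mcm4, Mcm10, Gins1, Rfc1, Pole, Rpa1 and Rrm2. Of these Gins1, Mcm4, Rfc1 and Rrm2 were also called against GFP. All 45 differences were below 0, with a median of -0.38 against 0.02 for all genes, and 36 members had both Smc1 arrays below all 4 condensin arrays, against 14.6% of all genes, while 0 had both above, against 20.5%. At an unadjusted p below 0.05 there were 31 members, all lower, against 9.03% of all genes. For 32 of 45 members both Smc1 arrays lay below the 6 others, against 11.1% of all genes tested. In this comparison fewer members, and fewer of all genes, were called without either Smc1 array, without CapH2 hairpin 4 or without either GFP array. The members' median was then -0.35 without Smc1 replicate 1 and -0.38 without Smc1 replicate 2. It was -0.39 without CapH2 hairpin 4 and -0.38 without either GFP array. The medians of all genes in these fits were 0.00 to 0.07. Without the intensity trend in the model 0 were called, against 5.33% of all genes, with 23 at an unadjusted p below 0.05, against 22.5%. With the beta-actin term 16 were called, against 13.4% of all genes. Over the 18 alternatives 42 to 45 members had a difference below 0.

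By gene, with intensities as given above, Rrm2 differed from the condensin knockdowns by -0.53 ± 0.10 (SE, adjusted p = 0.0128) and Mcm4 by -0.60 ± 0.12 (SE, adjusted p = 0.0172). Rpa1, whose condensin arrays ran up to 11941, differed by -0.54 ± 0.12 (SE, adjusted p = 0.0244). Gins1 was at -0.58 ± 0.13 (SE, adjusted p = 0.0253) and Mcm10, with the lowest log2 difference of the members here, at -0.71 ± 0.16 (SE, adjusted p = 0.0272). Orc1 was at -0.66 ± 0.15 (SE, adjusted p = 0.0278), Rfc1 at -0.62 ± 0.15 (SE, adjusted p = 0.0366), Pole at -0.58 ± 0.15 (SE, adjusted p = 0.0432) and Cdt1 at -0.45 ± 0.12 (SE, adjusted p = 0.0495). Each of the 9 called members had both Smc1 arrays below all 4 condensin arrays, against 14.6% of all genes. Over the alternatives the adjusted p ran from 0.008898 to 0.1997 for Rrm2 and from 0.0291 to 0.4201 for Cdt1, called in 16 of 18 and 4 of 18. Members called against GFP only, such as Ung (-0.64, adjusted p = 0.0735), Cdc45 (-0.64, 0.106), Pold2 (-0.57, 0.0835), Prim1 (-0.49, 0.0507), Tk1 (-0.41, 0.109), Cdc6 (-0.45, 0.102) and Gmnn (-0.24, 0.239), had differences below 0 here that did not pass the test.

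Outside the members, Atad5 (-0.69, adjusted p = 0.0302) and Dna2 (-0.71, 0.0167) were also called lower against the condensin knockdowns, as were Dhodh (-0.77, 0.0339) and Adss, an enzyme of AMP synthesis (-0.42, 0.0447). Cdkn1a, which encodes the inhibitor p21 of cyclin-dependent kinases, read 5239 and 4976 for Smc1, 2055 and 1649 for CapH2, 1629 and 2396 for Smc2 and 2655 and 3487 for GFP. Both Smc1 arrays were the highest, and it was called higher against the condensin knockdowns (1.41, adjusted p = 0.005396), while against GFP it was at 0.74 (adjusted p = 0.0509). Tfdp2 (-1.10, 0.0098) and Ccnd3 (-0.93, 0.0191) were called lower. In these arrays the 8 trophectoderm markers summed to 48749 and 34913 in Smc1 knockdowns against 7432 to 16911 in the condensin knockdowns, again mostly Krt8 and Krt18. Of the 7 tested 5 were called higher (71.4%), against 5.61% of all genes. The 7 include Cdx2 and Gata3, which passed the filter only through the Smc1 arrays. The share of 71.4% is therefore partly set by the filter.

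The condensin knockdowns themselves showed no called change in these genes. In CapH2 minus GFP limma called 0 of 45 members, against 0.0161% of all genes, and the smallest adjusted p was 0.366. The median was 0.01, 11 members lay above both GFP arrays and 11 below, against 25.3% and 21.9% of all genes, and 31 of 45 lay within 0.2 of GFP on the log2 scale. At an unadjusted p below 0.05 there was 1 member higher and 1 lower, against 7.55% and 5.09% of all genes (12.6% in either direction). In Smc2 minus GFP 0 of 45 were called, again against 0.0161%, with a smallest adjusted p of 0.289 and a median of 0.01. Here 11 members were above both GFP arrays and 8 below, against 23.2% and 21.7% of all genes, 32 lay within 0.2, and 3 had an unadjusted p below 0.05, all higher, against 7.28% of all genes higher and 5.33% lower. All 3 comparisons with GFP share the 2 GFP arrays. Without Smc2 hairpin 2, Fen1 was called higher in Smc2 minus GFP (log2 difference 1.03, adjusted p = 0.0451), the only member call in any alternative of these comparisons.

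Nor were the related lists called in the condensin knockdowns. In CapH2 minus GFP limma called 0 of 36 further fork and origin genes, 0 of 30 nucleotide synthesis genes and 0 of 32 regulators of S phase entry, with 2, 2 and 9 at an unadjusted p below 0.05. Against 12.6% of all genes the first and second counts are below the background and the third above it. In Smc2 minus GFP it called 0 in each of these lists as well, with 5, 2 and 7 at an unadjusted p below 0.05, against 12.6% of all genes again.

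**Figure D5:**
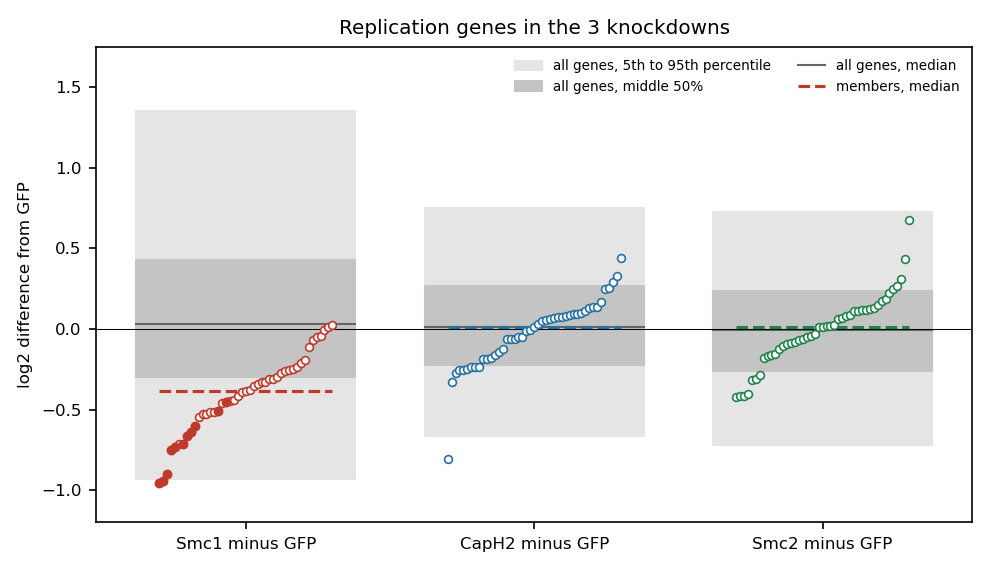
Circles are the log2 differences of the 45 members from GFP in each knockdown, sorted within each comparison, filled where called, with the dashed line at their median. Grey bands give all genes tested (middle 50%, and 5th to 95th percentile). Of the Smc1 circles 43 of 45 lie below 0, and the CapH2 and Smc2 circles lie on both sides of it.

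The members with an unadjusted p below 0.05, named after their values were seen, were Rfc5 and Tyms in CapH2 and Rfc5, Fen1 and Dbf4 in Smc2. Rfc5, a clamp loader subunit, read 6796 and 5992 in CapH2 knockdowns, 7556 and 5321 in Smc2 knockdowns and 4503 and 4885 in GFP controls. All 4 condensin arrays were above both controls, with log2 differences of 0.44 ± 0.18 (SE, adjusted p = 0.366) for CapH2 and 0.43 ± 0.18 (SE, adjusted p = 0.368) for Smc2. Fen1 was high on 1 array, Smc2 hairpin 1 at 4707, and its Smc2 difference was 0.68 ± 0.23 (SE, adjusted p = 0.289). Dbf4 had 9507 and 9565 in Smc2 knockdowns against 8387 and 7042 in GFP controls, a difference of 0.31 ± 0.13 (SE, adjusted p = 0.383). Tyms, near the array medians, was at -0.81 ± 0.34 (SE, adjusted p = 0.378) in CapH2.

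An adjusted p above the threshold does not show that these genes were the same as in controls, and the intervals give what the arrays allow. For Rrm2 the 95% interval of the log2 difference from GFP was -0.37 to 0.12 in CapH2 knockdowns and -0.34 to 0.15 in Smc2 knockdowns, against -0.88 to -0.39 in Smc1 knockdowns. For Gins1 it was -0.56 to 0.08 in CapH2 and -0.43 to 0.22 in Smc2, against -1.07 to -0.43 in Smc1. In Rrm2 the Smc1 interval lay wholly below those of both condensin knockdowns, and in Gins1 it overlapped both of theirs. Tk1 gave -0.69 to 0.04 in CapH2 and -0.67 to 0.06 in Smc2, and its 4 condensin arrays lay below both controls. For Cdc45 the intervals were wide, -0.75 to 0.37 in CapH2 and -0.98 to 0.14 in Smc2.

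Between the condensin knockdowns, CapH2 minus Smc2, limma called 0 of 45 members, against 0.00806% of all genes in either direction, and 0 had an unadjusted p below 0.05, against 1.03% (0.701% higher). The median was -0.03 and the differences ran between -0.43, in Fen1, and 0.39, in Lig1. For 36 members the CapH2 and Smc2 arrays overlapped, with 2 above and 7 below, against 12.6% and 10.2% of all genes. Lig1 read 4490.1 and 4469 in CapH2 knockdowns and 3682 and 3154 in Smc2 knockdowns, without overlap. With each array a different hairpin, these groups mix differences between hairpins with those between targets. The closer likeness of CapH2 hairpin 3 to Smc2 hairpin 1, and of hairpin 4 to hairpin 2, given above, enters the spread of this comparison as error, so the small counts here do not show that the groups were alike.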

How the data were processed

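The members were named by gene symbol, and the members, lists and tests were chosen with earlier results of these data known. The deposited table holds linear intensity values for 44903 probe sets on each array. The authors' probe summarisation method is not given in the sources used. Trimmed array means of 488.9 to 490.0 were nearly equal, any scaling by the authors is not recorded in these sources, and no normalization was added. Biotin-labelled RNA came from 100 ng of total RNA by a 3' in vitro transcription kit, per the labels' protocols.

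Of the probe sets, 34771 had exactly 1 symbol, 926 several and 9206 none, from the platform annotation, and the 64 array controls were left out. Each of 18140 genes was represented by its brightest probe set over the 8 arrays. Genes above the array median on 2 or more arrays were tested, 12411 in all.

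All 8 arrays were fitted together on log2(intensity + 16) with limma 3.58.1 in R 4.3.3 (lmFit, contrasts.fit, eBayes with trend; residual degrees of freedom 4, prior 5.95). The 5 contrasts set every knockdown against GFP, Smc1 against both condensin knockdowns averaged, and CapH2 against Smc2. Benjamini-Hochberg adjustment ran over all genes tested, and a gene was called at an adjusted p below 0.05. P-values are two-sided and use 1 spread per gene over all groups, which mixes hairpins (CapH2, Smc2) with replicates of 1 hairpin (Smc1, GFP). The script was tested on simulated data. With 2 arrays per group, the number of arrays limits the precision.

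Named in full were all members called in any comparison and, in each role, the members with the largest absolute Smc1 minus GFP difference until the role had 3. Of the other lists the text names up to 6 called genes each way. Other members are given by value or range, and exceptions are marked. Alternatives were the pseudocount, the filter, quantile normalization, median centring, the mean of all probe sets, fitting only the groups compared, no trend, the beta-actin ratio as a term, a replicate block, and leaving out each array. Same-numbered Smc1 and GFP arrays did not deviate together (r = 0.06 across genes), so the numbers were not taken as pairs. CapH2 and Smc2 arrays did, taken in deposited order (r = 0.41), but the labels give them no shared number, so they were not paired and no block was fitted for them.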

Additional observations from a re-analysis of the deposited data

How the results depend on the processing

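For Smc1 minus GFP, 11 members were called in the analysis as reported, 7 without the filter on low values, 19 with median centring, 3 without the intensity trend, 2 with the beta-actin term and 6 with the replicate block, and 0 to 13 when 1 array was left out. The members' median was -0.51 with median centring. For Smc1 minus the condensin knockdowns, 9 as reported, the count was 14 with median centring (median -0.50) and 4 with the mean of all probe sets. It was 4 with only the groups compared, 0 without the trend and 16 with the beta-actin term. In these 5 alternatives, in order, 7.82%, 5.56%, 4.92%, 5.33% and 13.4% of all genes were called. Those called lower were 3.77%, 1.58%, 1.27%, 1.29% and 4.39%. The count also moved when 1 array was left out, with a members' median between -0.43 and -0.35. In Smc2 minus GFP 0 to 1 members were called with 1 array left out, and the median ran between -0.0690 and 0.0499. In CapH2 minus Smc2 the median ran between -0.0831 and 0.0350.

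Among all genes, Smc1 minus GFP called 2696 with only the groups compared, 574 with the beta-actin term and 140 to 2197 with 1 array left out, against 1746. Smc1 minus the condensin knockdowns called 602 without the filter, 611 with only the groups compared, 1668 with the beta-actin term and 10 to 1170 with 1 array left out, against 974. CapH2 minus GFP called 1 with the mean of all probe sets, 11 with only the groups compared, 1 without the trend and 0 to 7 with 1 array left out, against 2. Smc2 minus GFP called 1 with the mean of all probe sets, 0 with only the groups compared, 0 without the trend, 58 with the beta-actin term and 0 to 195 with 1 array left out, against 2. CapH2 minus Smc2 called 2 with quantile normalization, 0 with the mean of all probe sets, 0 with only the groups compared, 0 without the trend, 2 with the beta-actin term and 0 to 3 with 1 array left out, against 1. The cause of these changes was not tested, beyond the fewer samples or genes that some settings hold.

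Of 4090 values of single members under the alternatives, 137 lost a call and 40 gained one. The sign changed in 175, of which 0 were called on either side. The Smc1 and GFP arrays share only a replicate number, and with 2 arrays per group the spread of any single member is poorly known. Signal over background limits Tyms, which lay near the array medians.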
